A study of Mus musculus with 6 samples.

Results

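The subject is a set of 10 amino acid transporters of the plasma membrane measured in AES wildtype and AES knockout leukaemia cells of the mouse: Slc7a5, Slc7a6, Slc7a7, Slc7a11, Slc3a2, Slc7a1, Slc1a4, Slc1a5, Slc38a1 and Slc38a2. They were picked by name, and each had a row of the deposited array table annotated with that symbol alone, so that 10 of 10 were measured among 19938 genes in all. Slc38a1 had 2 such rows and the brighter was used.

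Fetal liver cells of embryonic day 14.5 were given AML1-ETO9a, a shortened, leukaemia-causing form of the AML1-ETO fusion protein, before they were transplanted into recipients. The strain is given as C57BL/6. In one group the donor cells were AES wildtype, and in the other they carried floxed AES alleles. All recipients are described as receiving tamoxifen, 4 weeks after transplantation, to induce the deletion; the Cre driver is not stated. GFP-positive cells, which express AML1-ETO9a, were then sorted from the spleen, and RNA of 3 wildtype and 3 knockout samples was hybridised to 1 array each. Wildtype cells were taken once leukaemia had killed the animal and knockout cells when the experiment ended, so genotype and time of collection cannot be told apart. Whether each sample is from a mouse of its own is not stated, and p-values then measure only the spread between these samples.

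Amino acids cross the plasma membrane through carriers of several families. The heavy chain Slc3a2 (CD98, also called 4F2hc) is a single-pass glycoprotein that brings light chains of the SLC7 family to the cell surface, where the light chain carries the substrate. Slc1a4 and Slc1a5 exchange small neutral amino acids, and Slc38a1 and Slc38a2 take up glutamine and other neutral amino acids together with sodium. In dividing blood cells these carriers supply glutamine, leucine, arginine and cystine for protein and glutathione synthesis. Several of the genes are known targets of ATF4, a transcription factor made when amino acids run short, which binds composite C/EBP-ATF elements.

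Stretches of promoter that hold the letters of such an element are printed because 3 of the 7 transporters that could be searched carried them close to their start. Among them was Slc7a7, the gene with the clearest difference between genotypes. The RefSeq promoter table (GRCm38.p6) held windows from 250 bases before to 50 after a start for 7 of the 10 genes. Slc7a5, Slc1a5 and Slc38a1 were not matched. The letters TGATGNAA, searched on both strands, occurred in a window of Slc7a7, Slc7a11 and Slc1a4, which is 3 of 7 genes, and in 4.51% of all 27025 genes in the table (3.97% of 32851 windows). They were not found in the windows of Slc3a2, Slc7a1, Slc7a6 or Slc38a2. Asns, the asparagine synthetase gene and a known ATF4 target, is printed beside them. The sequences run 5′ to 3′ along each gene, capitals mark the matches, and all 4 genes lie on the minus strand: Slc7a7 at chr14:54417938-54418114 (bases -170 to 7 from the start), Slc7a11 at chr3:50443614-50443713 (-100 to -1), Slc1a4 at chr11:20332710-20332813 (-100 to 4) and Asns at chr6:7693210-7693269 (-60 to -1).
Slc7a7: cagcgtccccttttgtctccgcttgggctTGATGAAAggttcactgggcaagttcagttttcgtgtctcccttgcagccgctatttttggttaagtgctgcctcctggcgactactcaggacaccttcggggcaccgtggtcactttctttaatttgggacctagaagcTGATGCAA
Slc7a11: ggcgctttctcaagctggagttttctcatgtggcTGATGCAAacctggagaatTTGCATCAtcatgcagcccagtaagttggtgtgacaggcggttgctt
Slc1a4: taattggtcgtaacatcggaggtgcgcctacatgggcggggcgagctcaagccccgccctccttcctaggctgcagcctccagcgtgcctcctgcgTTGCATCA
Asns: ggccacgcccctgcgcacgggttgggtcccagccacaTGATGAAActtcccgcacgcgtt
Slc7a7 had 5 windows in the table to search, against 1 or 2 for each other transporter that had any. In the one shown its matches begin at -141 and at -1, one with A and one with C as the free base. Slc7a11 had 1 match on each strand, beginning at -66 and -47, and that of Slc1a4 began at -4. The antioxidant response letters TGACNNNGC, searched on both strands without regard to overlap with the first motif, were found for Slc7a6, Slc7a1 and Slc38a2 and for 14% of all genes in the table. They were not in the window of Slc7a11. A match is a description of the letters, and none of these sites was assayed here.

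The deposited values were used as log2 values, and the median of an array over the genes tested lay between 6.70 and 6.80. Aes, listed under its current symbol Tle5, had a mean of 11.11 on the wildtype and 8.99 on the knockout arrays, with groups that did not overlap (limma adjusted p = 0.234). Of 13 early myeloid and blast markers, 3 lay above the array median on every array and 1 below it on every array. Kit, among the 3 above, lay between 10.60 and 11.80, while the granule enzyme Mpo ran from 6.08 to 10.08. The erythroid genes Rhag (10.67 to 12.12) and Klf1 (9.22 to 10.39) were above the array median on every array. Of 13 T and NK cell markers, 11 lay below it on all 6 arrays. The samples differed most in neutrophil markers. The log2 of the summed level of 13 such genes was 13.11, 11.46 and 9.39 on wildtype replicates 1 to 3 and 9.24, 13.09 and 13.51 on knockout replicates 1 to 3, so that wildtype replicate 3 and knockout replicate 1 stood low in both groups. Knockout means were higher for 12 of the 13 and lower for 1 (median difference 0.63), with groups that overlapped for each gene.

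No transporter passed the test between genotypes. With limma and adjustment over all 19938 genes, 0 of 10 transporters had an adjusted p under 0.05, against 0% of all genes, and all 10 had an adjusted p of 1.00. At an unadjusted p under 0.05 there was 1 of 10, Slc7a7, against 2.53% of all genes. A second gene joined it under 3 of 14 alternatives. This was Slc1a4 with array weights, where the share of all genes was 4.86%, and without wildtype replicate 1, where it was 2.6%. Without knockout replicate 2 it was Slc7a5, where the share of all genes was 2.28%. Slc7a7 was the only one of the 10 whose knockout values lay entirely on one side of the wildtype values. Of all genes, 7.15% did so in either direction and 3.65% as higher in knockout. Means were lower in knockout cells for 9 of 10 transporters, against 49.1% of all genes, but most of these differences were small. The median difference of the 10 was -0.13 on the log2 scale, against 0.003 over all genes. The count rested on single arrays: against 1 higher mean with all arrays there were 4 once knockout replicate 1 was left out, 3 once wildtype replicate 1 was, and 2 each for wildtype replicate 2 and knockout replicate 3.

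**Figure D1:**
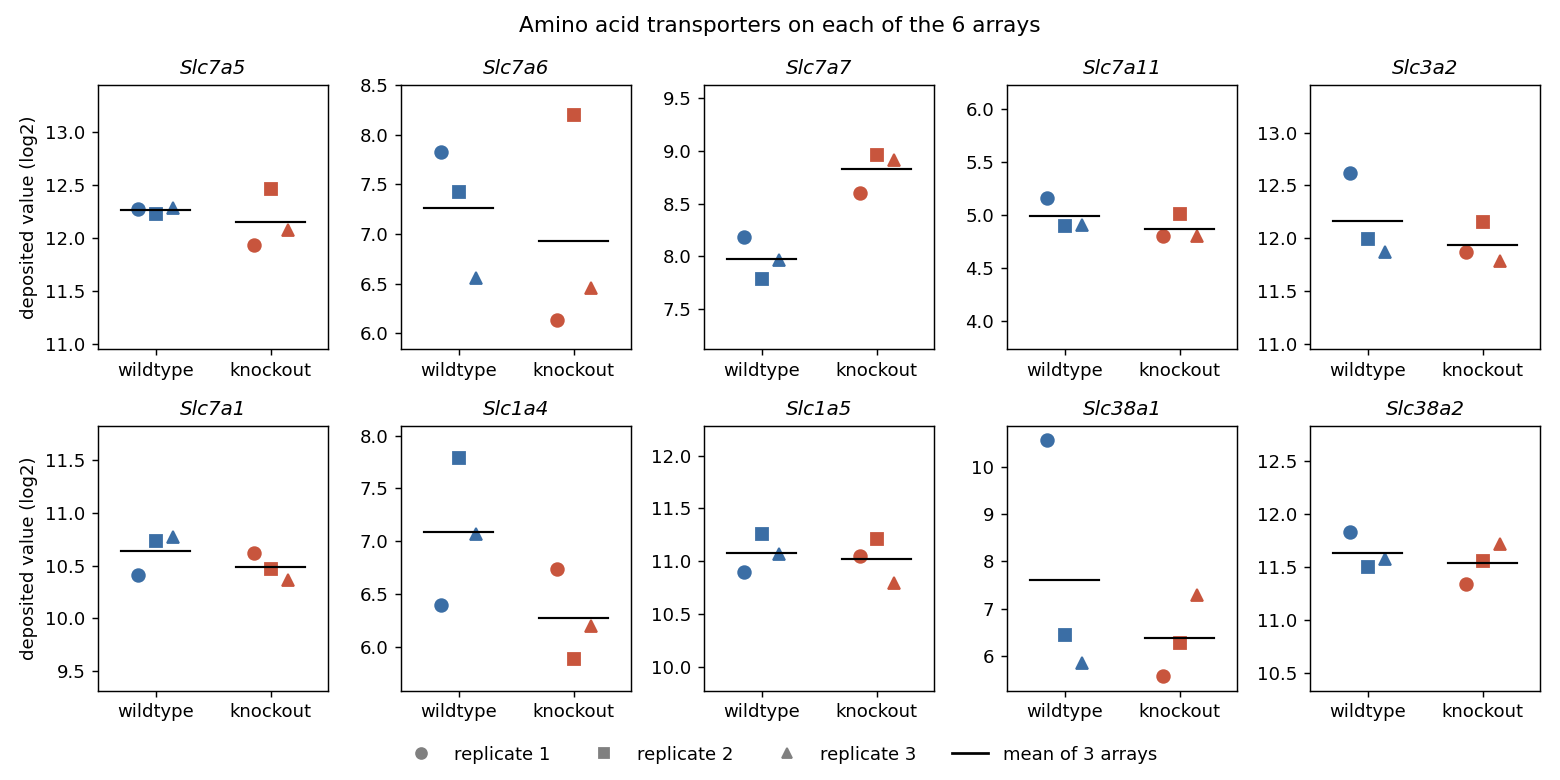
Deposited log2 value (vertical axis, a separate range in each panel, never narrower than 2.5 log2 units) of each of the 10 transporters on the 3 wildtype (blue) and 3 knockout (red) arrays, with marker shape giving the replicate number and the black line the mean of 3 arrays. Slc7a7 is higher on all 3 knockout arrays, from 8.60 to 8.96 against 7.79 to 8.18, and Slc38a1 reaches 10.56 on wildtype replicate 1 alone.

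Slc7a7 encodes y+LAT1, the light chain that exports cationic amino acids such as arginine in exchange for neutral ones. Its values were 8.18, 7.79 and 7.97 on wildtype replicates 1 to 3 and 8.60, 8.96 and 8.91 on knockout replicates 1 to 3. Every knockout array was above every wildtype array, and the gap between the groups was wider than the range within either. The mean was 7.98 ± 0.20 (SD, n = 3) with AES and 8.82 ± 0.19 (SD, n = 3) after its deletion, 1.80-fold higher (log2 difference 0.85, SE 0.15, 95% interval 0.48 to 1.21). This was the 12th smallest p of all genes tested, but the limma adjusted p was 1.00, and an exact two-sided permutation test reached p = 0.1, below which 3 against 3 arrays cannot go. Over 14 alternatives, single arrays left out included, the difference lay between 0.75 and 0.96.

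Slc7a7 is known for its level in macrophages, and the log2 summed level of 15 macrophage markers is therefore set beside it. It was 11.59, 11.91 and 10.74 in wildtype samples and 10.91, 10.81 and 12.32 in knockout samples. Knockout replicate 3 had the highest sum and wildtype replicate 3 the lowest, while Slc7a7 was highest on knockout replicate 2 and lowest on wildtype replicate 2. Bright genes weigh most in such a sum, and Slc40a1 was at 9.62 on knockout replicate 1 and 9.76 on wildtype replicate 2. Adgre1, Axl, C1qa, C1qb, C1qc, Cd68, Csf1r, Spic and Vcam1 were lowest on knockout replicate 1. Hpgd and Mertk were lowest on wildtype replicate 3, and the remaining markers on other arrays. The part of macrophage RNA in the Slc7a7 values was not tested. Of the 15 markers, 7 had higher and 8 had lower knockout means (median difference -0.007), and 3 lay below the array median throughout. In sorted cells that hold several types, more cells of a type and more RNA per cell cannot be told apart.

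Slc7a6 encodes y+LAT2, the closest relative of Slc7a7 in this set and a carrier with similar substrates. Its values were 7.82, 7.42 and 6.56 in wildtype samples and 6.14, 8.20 and 6.46 in knockout samples. The highest and the lowest value of all 6 were both on knockout arrays, and the groups overlapped. The difference was -0.33 (SE 0.62, 95% interval -1.86 to 1.19), so neither a 2-fold rise nor a 2-fold fall lies outside the interval. Its sign was positive, 0.06, without knockout replicate 1. The log2 difference Slc7a7 minus Slc7a6 within an array was higher by 1.18 in knockout cells, but with overlap (0.36, 0.37 and 1.41 in wildtype, 2.46, 0.75 and 2.45 in knockout). An exact permutation test of that difference gave p = 0.2, so the 2 related genes were not shown to differ from each other in their change between groups.

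Slc7a5 encodes LAT1, the light chain for leucine and other large neutral amino acids. Its wildtype values were nearly equal, at 12.27, 12.23 and 12.29, and its knockout values of 11.93, 12.46 and 12.07 lay on either side of them. The difference was -0.11 (SE 0.15), and its 95% interval of -0.47 to 0.25 holds no 2-fold change.

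Slc3a2, the heavy chain shared by these light chains, had values of 12.61, 11.99 and 11.87 on wildtype arrays and 11.87, 12.15 and 11.79 on knockout arrays. Wildtype replicate 1 was the highest, and without it the difference moved from -0.23 (SE 0.22) to 0.001. Set against its heavy chain within each array, Slc7a7 was higher by 1.07 in knockout cells, with values of -4.43, -4.21 and -3.90 in wildtype and -3.27, -3.19 and -2.87 in knockout. The groups did not overlap, and the exact permutation p was again 0.1, the smallest possible. Such a ratio is free of the scaling between arrays and bears only on the 2 genes relative to each other. The same ratio for Slc7a5, Slc7a6 and Slc7a11 differed by 0.12, -0.11 and 0.11, with exact permutation p of 0.8, 0.9 and 0.7. These 5 ratios were chosen after the values had been seen.

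Slc7a11, or xCT, imports cystine in exchange for glutamate for glutathione synthesis. All 6 of its values, from 4.80 to 5.16, lay below the array medians. There is no detection call, so its difference of -0.11 (95% interval -0.39 to 0.16) is not read as a change in level.

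Slc7a1, or CAT1, is the main carrier for arginine and lysine uptake and needs no heavy chain. It lay between 10.41 and 10.77 in wildtype and between 10.36 and 10.62 in knockout cells, a difference of -0.15 (SE 0.13). The sign was negative under each of 14 alternatives, from -0.27 to -0.09, but the groups overlapped.

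**Figure D2:**
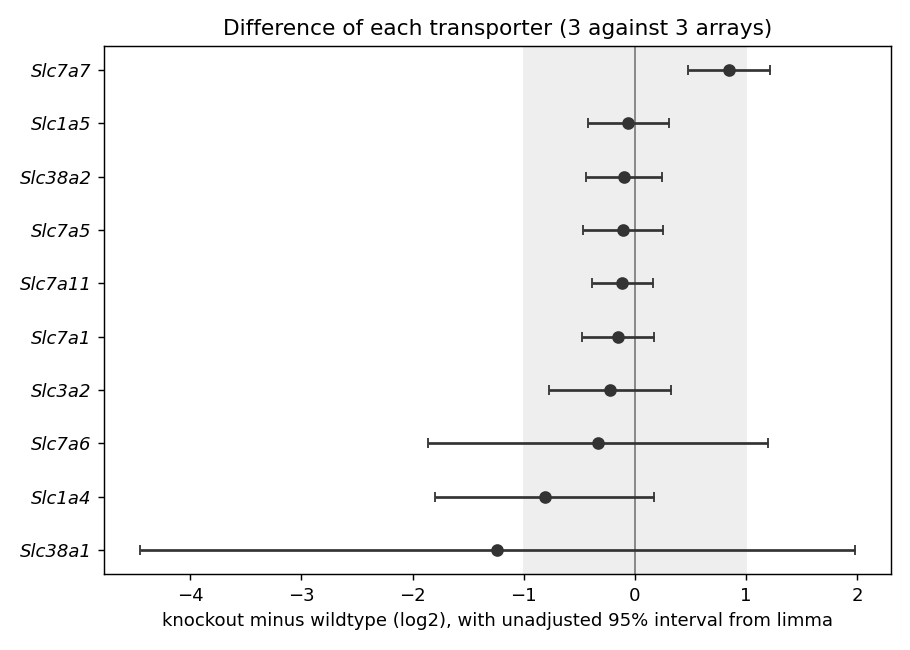
Difference of each transporter on the horizontal axis as knockout minus wildtype in log2 units (point) with the unadjusted 95% interval of the limma fit (bar), over 3 against 3 arrays; the grey band spans a 2-fold change either way. The interval of Slc7a7 alone does not reach 0, 6 intervals lie wholly within the band, and that of Slc38a1 runs from -4.45 to 1.98.

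Among the neutral exchangers, Slc1a5 (ASCT2), a glutamine carrier, had the smallest difference of the 10, -0.06 (SE 0.15). Its values ran from 10.90 to 11.26 in wildtype and from 10.79 to 11.21 in knockout cells, and the 95% interval of -0.42 to 0.31 holds no 2-fold change. Slc1a4 (ASCT1), a carrier for serine, alanine and cysteine, varied more. Its values were 6.40, 7.79 and 7.06 in wildtype samples and 6.74, 5.88 and 6.20 in knockout samples. Wildtype replicates 2 and 3 were above all knockout arrays, but wildtype replicate 1 lay below knockout replicate 1. The difference was -0.81 (SE 0.40, 95% interval -1.79 to 0.17), the second smallest p of the 10 genes. It was negative under each of 14 alternatives, from -1.18 to -0.46. On 3 of 6 arrays the value was below the array median.

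Slc38a1 and Slc38a2 encode SNAT1 and SNAT2, sodium-coupled carriers for glutamine, alanine and other neutral amino acids, and are neighbours on chromosome 15. Slc38a1 had the widest range of the set. Its values were 10.56, 6.44 and 5.84 on wildtype replicates 1 to 3 and 5.57, 6.27 and 7.30 on knockout replicates 1 to 3. Wildtype replicate 1 was 3.27 log2 units above the next array, and 4 arrays lay below the array median. The difference of -1.24 (SE 1.30) rested on that array, and without it the value was 0.24. The dimmer row of the gene showed the same order at the top, with 7.48 on wildtype replicate 1, 5.59 on knockout replicate 3 and 4.83 to 5.28 on the others. Slc38a2 was likewise highest on wildtype replicate 1, next on knockout replicate 3 and lowest on knockout replicate 1. The order of the other arrays differed, and its range was much narrower than that of its neighbour. Slc38a2 lay between 11.50 and 11.83 in wildtype and between 11.33 and 11.71 in knockout cells. Its difference was -0.10 (SE 0.14), with an interval of -0.44 to 0.24.

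The profiles nearest to the 3 transporters with the widest range were found by the root-mean-square distance between values centred on their own mean over the 6 arrays. Nearest to Slc38a1 were Hipk3, a protein kinase gene, at 0.27 log2 units, Qser1 at 0.37 and Fabp5, a fatty acid binding protein gene, at 0.49. All 3 were likewise highest on wildtype replicate 1, at 10.34, 8.26 and 10.26. Nearest to Slc7a6 were Krt80, Thbs1 and Fn3k (0.25 to 0.30), and nearest to Slc1a4 were Cfap126, Rida and Prss57 (0.20 to 0.25). With 6 arrays and so many genes, near profiles are always found, and they are given as a description.

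**Figure D3:**
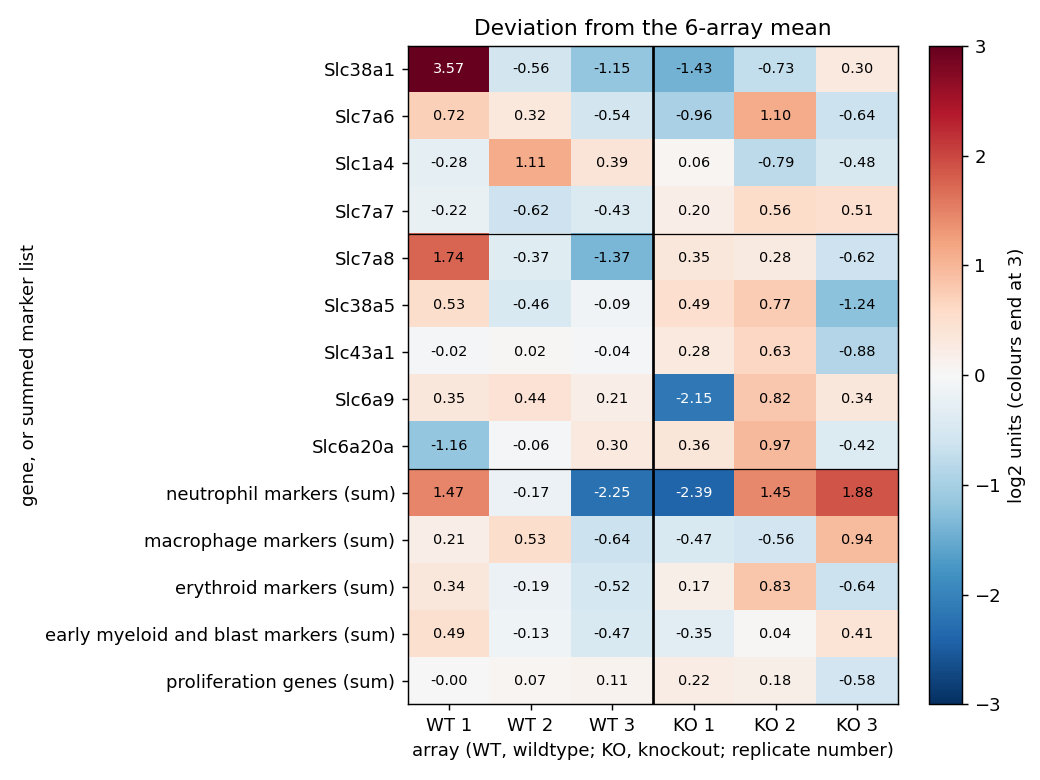
Deviation from the 6-array mean in log2 units (colour and printed value) for the 4 transporters with the widest range, for 5 other bright amino acid transporters and for the summed level of 5 marker lists, with the 3 wildtype arrays left and the 3 knockout arrays right of the black line. Slc38a1 stands at 3.57 on wildtype replicate 1, and neutrophil markers at -2.25 on wildtype replicate 3 and -2.39 on knockout replicate 1.

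The neutrophil marker sums are set beside the 3 transporters with the widest range. Slc7a6 was highest on knockout replicate 2 and wildtype replicates 1 and 2, where these sums were 13.09, 13.11 and 11.46, but it was low on knockout replicate 3, where the sum was 13.51. Slc38a1 was highest on wildtype replicate 1 and next on knockout replicate 3, and lowest on knockout replicate 1 and wildtype replicate 3, which had the lowest neutrophil sums, but on knockout replicate 2, with a sum of 13.09, it was at 6.27, below wildtype replicate 2 at 6.44 with a sum of 11.46. Slc1a4 had its 3 lowest values (5.88, 6.20 and 6.40) on knockout replicates 2 and 3 and wildtype replicate 1, the 3 arrays with the highest neutrophil sums, and its 3 highest on the 3 arrays with the lowest. The early myeloid list also had its highest sums, 13.35 and 13.27, on wildtype replicate 1 and knockout replicate 3. Proliferation genes were lowest on knockout replicate 3 (14.93, against 15.50 to 15.73). The part of these differences in the transporter values was not tested.

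Of 34 other plasma membrane amino acid transporters, 34 were measured. None passed, against 0% of all genes, and 0 had an unadjusted limma p under 0.05, against 2.53%. Groups did not overlap for 1 gene higher in knockout, Slc6a18, and 2 lower, Slc1a2 and Slc7a13, against 7.15% of all genes in either direction. Each of these lay below the array median on every array. The median difference of the list was 0.003, with 19 higher and 15 lower means. On all 6 arrays, 24 lay below and 8 above the array median. The brightest 5 were Slc7a8, Slc43a1, Slc38a5, Slc6a9 and Slc6a20a, several of which are known from erythroid precursors. Slc7a8 (LAT2), another light chain of Slc3a2, had values of 12.97, 10.86 and 9.86 in wildtype and 11.57, 11.50 and 10.61 in knockout cells, with a difference of 0.002 (SE 0.81). It was highest on wildtype replicate 1, as Slc38a1 and Slc3a2 were. Slc43a1 (LAT3), a carrier of branched-chain amino acids, stayed within 11.33 to 11.39 in wildtype cells, while knockout replicate 1 was at 11.65 and knockout replicate 3 at 10.48 (difference 0.02). The glutamine carrier Slc38a5 (SNAT5) had a difference of 0.02, and its lowest value, 9.18, fell on knockout replicate 3 as did that of Slc43a1. On that array the log2 sum of 7 erythroid markers was also lowest, at 13.07, against 13.18 to 14.53 elsewhere. The glycine carrier Slc6a9 lay between 10.37 and 10.98 on 5 arrays and at -2.15 from its 6-array mean on knockout replicate 1, for a difference of -0.66 (SE 0.77). Slc6a20a, an imino acid carrier, had a difference of 0.61 (SE 0.50), and 0.18 without wildtype replicate 1. Slc7a4, Slc7a2, Slc1a2 and Slc6a18 had the smallest p of this list, at differences of 0.50, 0.57, -0.14 and 0.11, and none passed. The value of Slc7a2 rested on knockout replicate 3, at 6.94 against 5.27 to 5.43 elsewhere, and without it the difference was 0.06. Slc1a2, Slc7a2 and Slc6a18 lay below the array median on at least 5 of 6 arrays.

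Targets of ATF4 and of the amino acid response had a lower knockout mean for 21 of 25 measured genes, the median being -0.18, against 49.1% and 0.003 for all genes. The tilt was not particular to this list, as proliferation genes had lower means for 17 of 19 (median -0.18). No ATF4 target passed over all genes, and 1 of 25 had an unadjusted limma p under 0.05, against 2.53% of all genes. That gene, the stress-induced cofactor Nupr1, had means of 7.71 ± 0.05 and 7.24 ± 0.15 (SD, n = 3 each; limma adjusted p = 1.00). It was also the 1 gene of 25 whose groups did not overlap, against 7.15% of all genes. Asns went the other way, with 8.66, 11.71 and 9.79 in wildtype samples and 11.36, 11.80 and 12.63 in knockout samples (difference 1.88, SE 0.80). Phgdh, for serine synthesis, had a difference of -1.48 (SE 0.71) and Mthfd2, a mitochondrial folate enzyme, of -0.82 (SE 0.45). Phgdh was at 6.75 and 6.87 on knockout replicates 1 and 2, but at 9.29 on replicate 3, within the wildtype range of 8.91 to 9.51. Mthfd2 was at 8.37 on knockout replicate 3, against 9.86 and 9.94 on the other knockout arrays and 9.93 to 10.46 in wildtype. Atf4 itself lay between 9.22 and 9.77 in wildtype and between 9.22 and 9.71 in knockout cells. The other genes of the list with higher means were Sesn2 (0.16), Psph (0.03) and Shmt2 (0.008).

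Upstream of ATF4, 9 of 14 kinases and subunits of the eIF2 pathway had higher means (median 0.09). The haem-regulated kinase Eif2ak1 (0.28), the endoplasmic reticulum kinase Eif2ak3 (0.10), the exchange factor subunit Eif2b4 (-0.32) and the Gcn2 partner Gcn1 (-0.16) had the smallest p. Cytosolic aminoacyl-tRNA synthetases, which load tRNAs with amino acids, had lower means for 13 of 18 (median -0.10). Vars (-0.15), Cars (-0.42), Eprs (-0.18) and Yars (-0.23) led by p. Without knockout replicate 3 the differences of Cars, Eprs and Yars were -0.09, -0.05 and -0.004, and those of Eif2b4 and Gcn1 -0.09 and -0.04. Groups did not overlap for 1 of 18 synthetases, Vars, against 7.15% of all genes. In both lists 0 genes passed, and 0 had an unadjusted limma p under 0.05, against 0% and 2.53% of all genes.

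A list of mTORC1, the kinase complex that reads amino acid supply, and of amino acid sensing held subunits of the complex and its inhibitors. Higher means were found for 21 of 33 (median 0.07). The subunits Mtor, Mlst8 and Akt1s1 had differences of -0.08, -0.05 and 0.01. Rptor, the scaffold subunit of mTORC1, had values of 9.14, 9.17 and 9.43 in wildtype samples and 9.51, 9.72 and 9.47 in knockout samples. The difference was 0.32 (SE 0.12, limma adjusted p = 1.00), and this was the 1 gene of 33 with an unadjusted limma p under 0.05, against 2.53% of all genes. Groups did not overlap for 2 of 33, Rptor and Lamtor1, against 7.15% of all genes. Lamtor1, a lysosomal anchor of this pathway, had a difference of 0.24, and its partner Lamtor2 had -0.22. The inhibitor Tsc2 had 0.22. Among lysosomal carriers, most of them for amino acids, 6 of 10 had lower means (median -0.11). Slc15a3 (-0.33) and Slc36a4 (-0.60) were lower and the cystine exporter Ctns (0.28) and the nucleoside carrier Slc29a3 (0.26) higher in their means. Without wildtype replicate 1 the difference of Slc36a4 was 0.01. No gene of these lists passed.

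**Figure D4:**
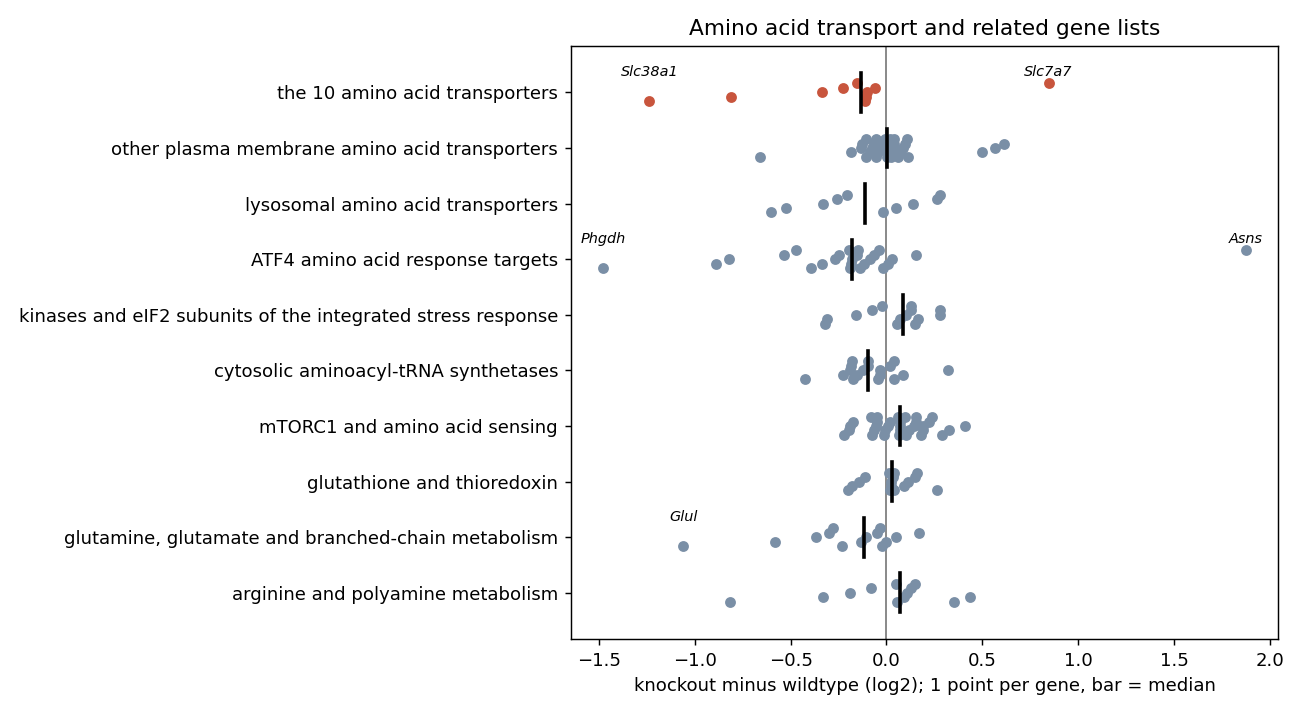
Difference as knockout minus wildtype in log2 units (horizontal axis) for each measured gene (point) of the 10 transporters and of 9 related lists, with the median of each list as a black bar. The medians lie between -0.18 and 0.09, and Asns (1.88), Phgdh (-1.48), Slc38a1 (-1.24), Glul (-1.06) and Slc7a7 (0.85) are labelled.

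The substrates' onward use was examined in 3 further lists, in which 0 genes passed. Glutathione and thioredoxin genes, downstream of cystine uptake, had higher means for 12 of 16 (median 0.03), with Gss, the glutathione synthetase, at 0.26, Nfe2l2 at 0.11, its inhibitor Keap1 at -0.14 and the quinone reductase Nqo1 at -0.18. Nfe2l2 moved to -0.02 without knockout replicate 1 and Keap1 to -0.04 without knockout replicate 3. Genes of glutamine, glutamate and branched-chain metabolism had lower means for 12 of 14 (median -0.12), with Mccc2 at -0.37, Dbt at -0.58 and Bckdha at 0.17. Without knockout replicate 3 these last 2 were at -0.05 and 0.05. Glul, which makes glutamine from glutamate, lay between 10.87 and 11.32 on 5 arrays and at 7.43 on knockout replicate 1, and its difference was -1.06 (SE 1.07). Knockout replicate 1 was the array where Slc6a9 was low as well. Without that array the values were 0.23 for Glul and 0.25 for Slc6a9. Genes of arginine and polyamine metabolism had higher means for 8 of 12 (median 0.07). The antizyme gene Oaz2, which restrains polyamine synthesis and uptake, had a difference of 0.35 (limma adjusted p = 1.00), and its groups overlapped. It was the 1 gene of 12 with an unadjusted limma p under 0.05, against 2.53% of all genes. Arg1 and Nos2, which use arginine, lay below the array median on all arrays. Smox, a spermine oxidase, had -0.82, and 0.25 without knockout replicate 3.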

How the data were processed

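RNA of 3 AES wildtype and 3 AES knockout samples was measured on 1 Affymetrix mouse gene array each. The values the authors deposited lie between 2.67 and 14.4 and were taken to be log2. For log base, background correction and array normalization, nothing is given in the sources used; base 2 was inferred from the range. Of 35512 rows, 1 had no value, 21789 had 1 symbol in the platform annotation, 1621 several and 12101 none. Per gene, the row with the highest mean over 6 arrays was used (19938 genes). Of the rows with 1 symbol, 21698 were matched to the GRCm38.p6 gene table for current symbols.

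Knockout was compared with wildtype with limma 3.58.1 in R 4.3.3 (lmFit and eBayes, two-sided, no block, no filter), with Benjamini-Hochberg adjustment over all genes at 0.05. Group means of a transporter or of a within-array difference were also compared with an exact two-sided permutation test. The fit was tested on simulated data. The number of arrays limits the precision. No detection call was used; a value below its array's median over genes is called so.

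The members and lists were chosen with earlier results of these data known, so lists are described by counts and medians. Genes named were all 10 members, the 4 smallest unadjusted p of each related list and any with a log2 difference of at least 1, the 5 brightest other transporters and the 3 nearest profiles of the 3 widest members. A few others (Atf4, Sesn2, Psph, Shmt2, marker genes) were named after their values were seen. Marker lists are given by counts and sums.

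Each choice was varied in turn: values were quantile normalized or centred on array medians, dim genes were removed, eBayes was run with its trend and robust options, the replicate number served as a block, rows of one gene were averaged, and arrays were weighted. Others were no variance moderation, the other row of Slc38a1, and leaving out each array. Figures were drawn with matplotlib 3.10.9. Sequences are RefSeq's.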

Additional observations from a re-analysis of the deposited data

How the results depend on the processing

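No transporter passed the threshold in the fit reported or in any of its 14 alternatives (the filter on dim genes kept 8 of 10 members, without Slc38a1 and Slc7a11). The count of genes called was 0 to 3 with single arrays left out (3 without knockout replicate 2, none of them a transporter) and 0 otherwise. Slc7a7 stayed higher (0.75 to 0.96, limma adjusted p 0.897 to 1.00), and Slc1a4, Slc7a1 and Slc7a11 stayed lower wherever they were tested. The number of transporters with a higher mean was 3 with array weights and 1 to 4 with single arrays left out, against 1, and their median difference stayed negative, from -0.22 to -0.03. With array weights Slc7a5 turned to 0.035 and Slc7a6 to 0.31. With single arrays left out, Slc1a5 ranged from -0.15 to 0.054, Slc38a1 from -2.12 to 0.24, Slc38a2 from -0.19 to 0.00018, Slc3a2 from -0.37 to 0.00053, Slc7a5 from -0.26 to 0.0025 and Slc7a6 from -0.97 to 0.064. Of 42 other named genes, 8 changed sign. With quantile normalization Slc38a5, Slc7a8 and Slc43a1 were at -0.023, -0.018 and -0.0089, and with array weights at 0.53, 0.45 and 0.32. With single arrays left out, Slc6a9 ranged from -1.24 to 0.25, Slc38a5 from -0.36 to 0.64, Slc7a8 from -0.68 to 0.87, Slc43a1 from -0.29 to 0.47, Slc36a4 from -1.07 to 0.011, Nfe2l2 from -0.019 to 0.20, Glul from -1.72 to 0.23 and Smox from -1.62 to 0.25. The cause of these changes was not tested. Same-numbered samples did not pair (correlations of deviations -0.26, -0.23 and 0.07), and with the replicate block 0 transporters and 0 genes passed, 459 genes had an unadjusted p under 0.05, against 505, and the median of the 10 was -0.13. Over the alternatives on all 19938 genes that count ran from 376 (without wildtype replicate 2) to 703 (without knockout replicate 1) and 968 (array weights). The range of brightness limits Slc7a11, and in part Slc38a1, Slc1a4 and Slc7a6, which lay below the array median on some or all arrays.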

Other observations

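Slc38a1 was the gene with the second largest excess on wildtype replicate 1 over the highest other array, 3.27 log2 units, and 38 genes exceeded all other arrays there by at least 2. In gene order on chromosome 15 its next measured neighbours on one side, Slc38a2 and Slc38a4, did not share this excess (0.11 and -0.03), and neither did Scaf11 (-0.41) and Arid2 (-0.50) on the other side. Beyond Slc38a4, however, Amigo2, a cell adhesion protein gene, had 9.70 on that array against at most 7.39 elsewhere, an excess of 2.31, and Pced1b had 9.10, an excess of 1.18. Hipk3 and Qser1, whose profiles lay nearest to that of Slc38a1, are both on chromosome 2. Between them, Cstf3, Tcp11l1 and Depdc7 had excesses of -0.09, 0.21 and -0.38. These neighbours were looked up after the values had been seen, and no test was made.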
